A study of Mus musculus with 2 samples.

Results

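The genes described here encode the subunits of the mitochondrial respiratory chain and of ATP synthase that lie in the nuclear genome. They were taken by name from mouse arrays: every gene spot whose gene name begins with Nduf, Uqcr, Cox4 to Cox8 or Atp5, or is Sdha, Sdhb, Sdhc or Sdhd. The rule found 83 of the 27745 gene names, on 116 probes, and no measured value entered it. By name, 38 belong to complex I, 4 to complex II, 7 to complex III, 18 to complex IV and 16 to complex V. Of these, 77 genes passed the filter for brightness, in which the same channel had to be well above background on both arrays, and they were tested among 9946 genes. The name rule also takes in 5 genes that are no subunits, and these were kept apart: the assembly factors Ndufaf1 and Ndufa12l (now Ndufaf2), the supercomplex factor Cox7a2l, Atp5s (now Dmac2l) and Cox4nb (now Emc8), a neighbour of Cox4i1 that encodes a membrane protein insertion factor. That leaves 78 subunits, of which 73 were measured.

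Each of the 2 arrays compared RNA of CD8+ T cells from Bcl11bF/F/dLck-iCre mice with RNA of CD8+ T cells from wild-type mice, 1 pair for each biological replicate. All mice were infected with Listeria monocytogenes-OVA, a strain that carries ovalbumin, and the cells were isolated on day 6 by negative selection at a purity above 90%. The Cre recombinase is driven by the distal Lck promoter, which is active in T cells, so that Bcl11b, a gene for a transcription factor that T cells need, is deleted there. The labels do not say which exons are removed, and a probe outside them cannot check the deletion. The labels give neither the age nor the number of the mice, nor whether the wild-type mice carried Cre. The deficient RNA carried Cy5 each time and the wild-type RNA Cy3, which means that dye and genotype cannot be told apart. Every log2 ratio below is deficient over wild type. A mean of both arrays is given with its SD (n = 2), which measures the spread between these samples.

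The respiratory chain passes electrons from NADH (complex I) and succinate (complex II) through ubiquinone to complex III, on to cytochrome c and finally, at complex IV, to oxygen. Complexes I, III and IV pump protons across the inner membrane as they do so, and complex V, the ATP synthase, makes ATP from the returning protons. Complex II is also an enzyme of the citric acid cycle. CD8+ T cells that respond to an infection raise both glycolysis and respiration as they divide, and memory cells are known for a large respiratory reserve.

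Markers of other cell types differed between the genotypes. Of all genes tested, limma called 3.67% higher and 6.00% lower at an adjusted p under 0.05. For Bcl11b itself the log2 ratios were -0.69 (replicate 1) and -2.95 (replicate 2), a mean of -1.82 ± 1.60 (SD, n = 2; limma adjusted p = 6.49e-04). All 17 measured macrophage markers rose, with a median of 3.17, and their summed intensity was 40386 and 26532 in wild-type RNA against 322156 and 256295 in deficient RNA. Of 8 measured B cell markers 6 rose (median 1.73), of 7 neutrophil markers 3 (median 1.12), of 5 erythroid markers 4 (median 1.40), of 5 natural killer cell markers 3 (median 1.30) and of 4 dendritic cell markers 3 (median 2.00). Of these lists, the natural killer marker Ncr1 alone was measured but not well above background in wild-type RNA on either array. No measured T cell marker was at background on both arrays in either genotype, and 6 of 14 fell (median -1.14), their summed intensity being 219088 and 252556 in wild-type and 124418 and 87423 in deficient RNA. The part of these cells in the values below was not tested, and in such bulk samples a change in the share of a cell type and a change in RNA per cell cannot be told apart.

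Most subunits had small positive ratios after loess, and few passed the test. Over the 73 measured subunits the median was 0.45 for replicate 1 and 0.064 for replicate 2, beside -0.22 and -0.0080 for all 9946 genes. Above 0 on both arrays were 41 of the 73, against 32.4% of all genes, and below 0 on both were 9, against 41.6% of all genes. This direction turned with the normalization: when each array was centred on its median in place of loess, which is fitted along spot brightness, the median of the subunits was -0.48 beside -0.41 for all genes, and 7 of 73 lay above 0 in place of 60. Limma called 2 of the 77 members higher (3.67% of all genes were) and 0 lower (6.00% of all genes were; 3 members were lower at an unadjusted p under 0.05), so 2 members in either direction beside 9.67% of all genes. Over all genes the calls were 365 higher and 597 lower, a split that became 69 and 352 with median centring and 540 and 564 with each array shifted to a gene median of 0, and that turned to more genes higher than lower without background correction (293 and 190), with the background surface subtracted (233 and 179) and with both channels required to be well above background (547 and 212). The count of members higher was thus near the share of all genes, and it ran from 0 to 4 over the other ways to process the arrays. At an unadjusted p under 0.05 the count was 8 of 77 members beside 2181 of 9946 genes. With 2 arrays limma gave every gene the same variance, hence a standard error of 0.42, and a call required a mean log2 ratio beyond 1.18 in either direction.

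**Figure D1:**
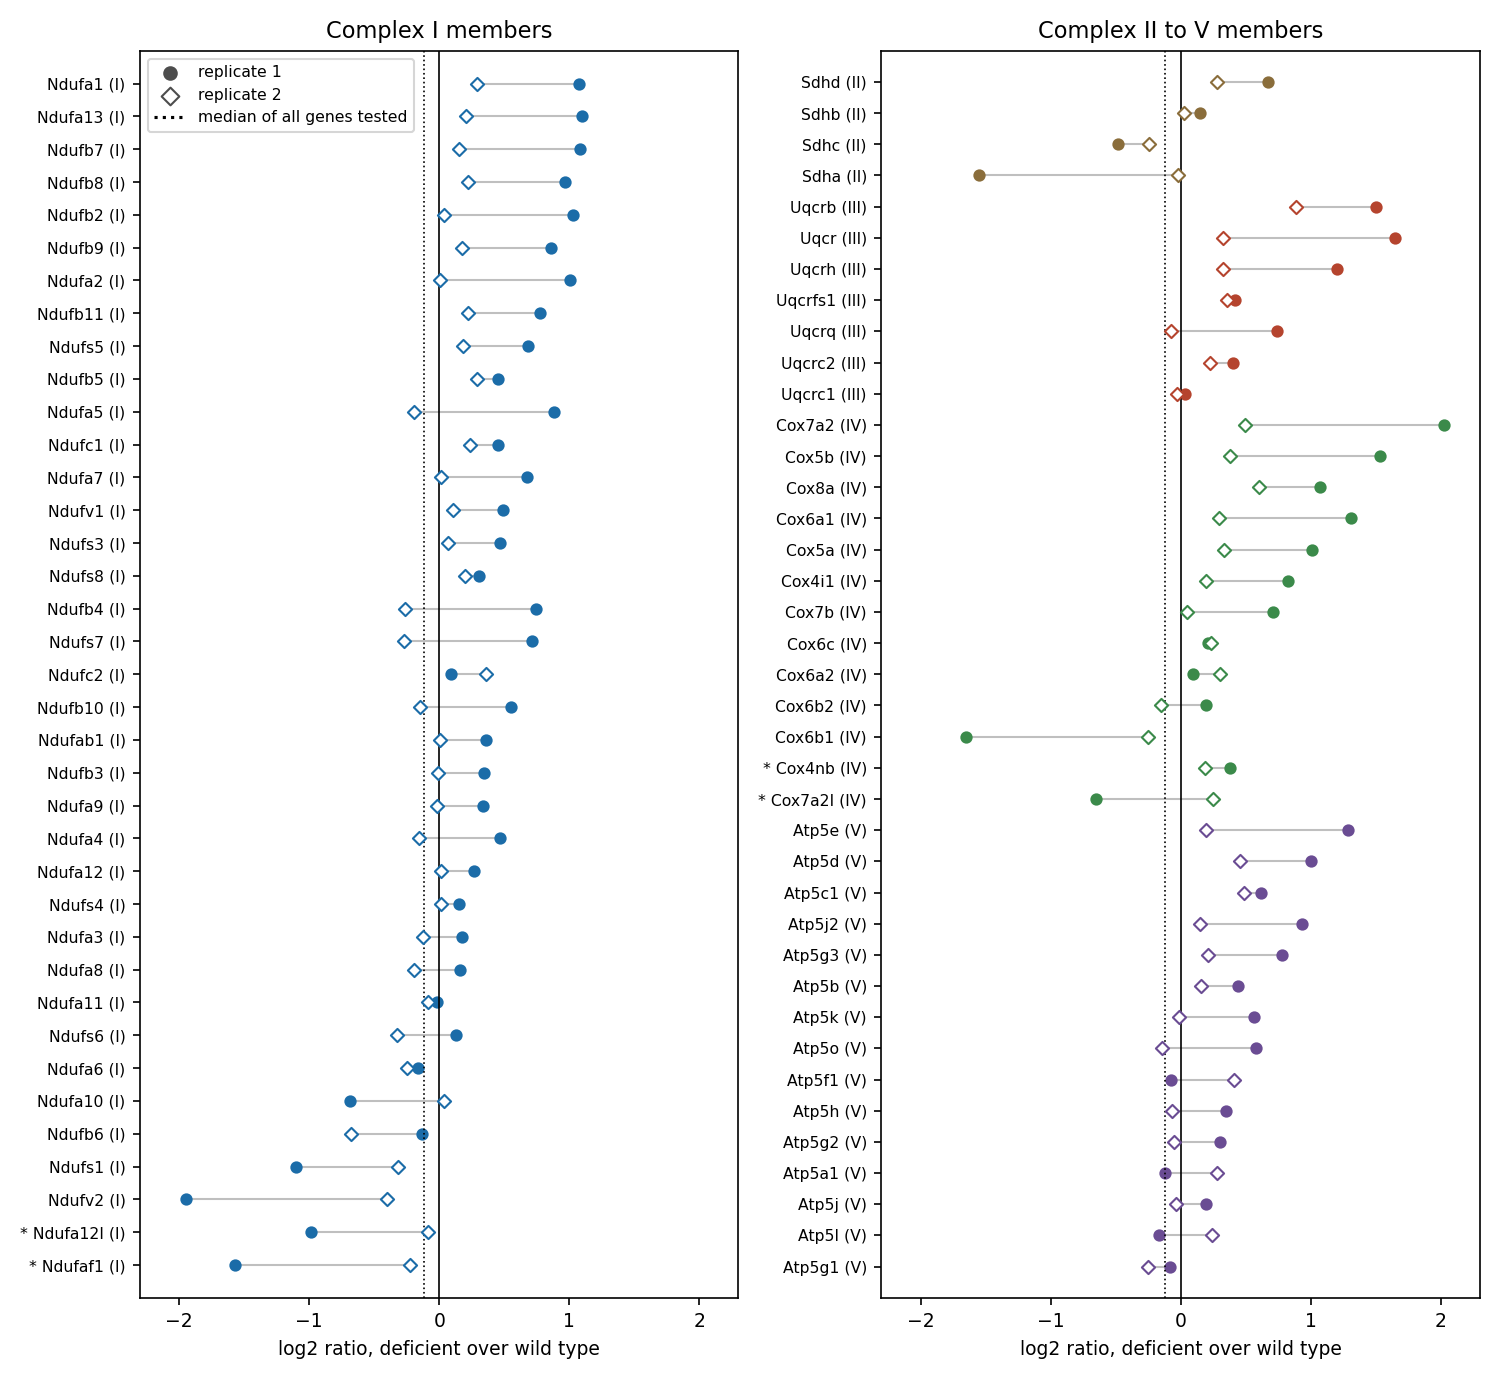
Log2 ratio of deficient over wild type (horizontal axis) for the measured members described here, grouped by complex, with a filled circle for replicate 1, an open diamond for replicate 2 and a star before genes that are no subunits; the dotted line is the median of all genes tested, at -0.12. Replicate 1 spans -1.95 (Ndufv2) to 2.02 (Cox7a2) and replicate 2 a narrower range, and most circles lie right of 0, which holds after loess and not after median centring.

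The complexes differed in how far their subunits stood from 0. Complex IV had the highest median, 0.51 over 11 measured subunits (0.82 on replicate 1 and 0.29 on replicate 2), followed by complex III with 0.39 over 7 (0.74 and 0.33). Without the filter on dim probes, which brings in the dim isoforms, complex IV was at 0.23, below complex III (0.39) and near complexes I and V (0.22 each). Complex I stood at 0.22 over 36 subunits (0.45 and 0.012) and complex V at 0.22 over 15 (0.44 and 0.16). Complex II, at -0.14 over 4 (-0.17 and 0.0021), lay beside the -0.12 of all genes in this mean, but lower than it after median centring (-0.54 against -0.41), where complex III was the nearest (-0.40). After median centring all of these medians were below 0, from -0.26 for complex IV to -0.66 for complex V.

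Between complexes, 8 of 10 differences in median had the same sign on both arrays, and in 7 the mean difference was larger than its SD. Complex I minus complex IV was -0.37 on replicate 1 and -0.28 on replicate 2, a mean of -0.33 ± 0.062 (SD, n = 2). Complex I minus complex III was -0.29 and -0.32, a mean of -0.30 ± 0.017. Both complexes also stood above complex V, complex III by 0.31 and 0.17 and complex IV by 0.38 and 0.14. Complex II was the lower one against complex IV, with -0.99 and -0.29, and against complex III, with -0.91 and -0.33. Complexes III and IV changed order between the arrays (-0.077 and 0.033), as did complexes I and V (0.013 and -0.14). An exact test over 2 arrays cannot give a two-sided p below 0.5, so these differences are descriptions. The order of complexes III and IV above I, II and V held under each of 13 other ways to process the arrays, median centring included. Complex I minus complex IV came as close to 0 as -0.0076. Not all 13 could change the order: shifting each array to a gene median of 0 and fitting separate channels leave these differences as they are. Updated gene symbols and choosing the brightest probe before the filter gave the same differences. The deposited table repeats Feature Extraction's own ratios.

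**Figure D2:**
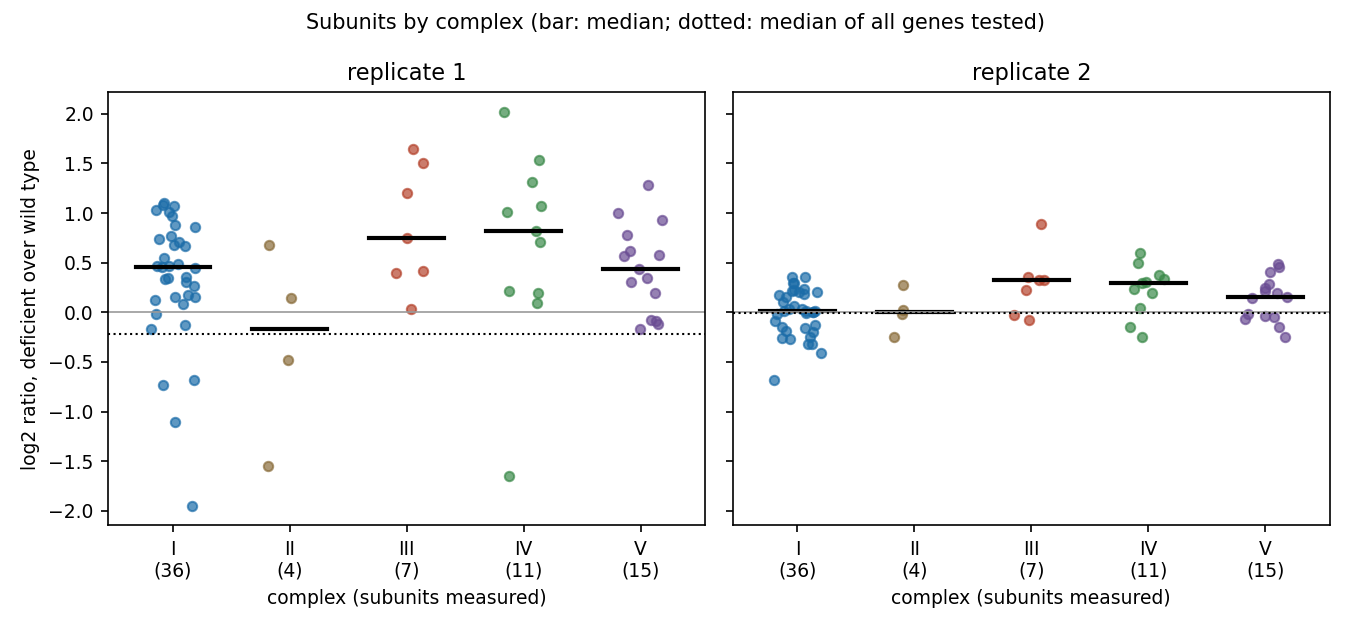
Log2 ratio (vertical axis) of every measured subunit by complex on replicate 1 (left) and replicate 2 (right), with the median of each complex as a bar, the number of subunits in parentheses and the median of all genes as a dotted line. The bars of complexes III and IV stand highest on both arrays (0.74 and 0.82 on replicate 1, 0.33 and 0.29 on replicate 2); after median centring in place of loess all bars fall below 0 in the mean of both arrays, and these 2 remain the highest.

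In complex IV, cytochrome c oxidase, Cox7a2 had the highest ratio of all subunits. Cox7a2 is a small membrane subunit found in most tissues, the counterpart of the heart and muscle form Cox7a1. Its log2 intensity was 10.57 and 10.59 in wild-type RNA and 12.59 and 11.09 in deficient RNA, so replicate 1 carried the larger difference. The log2 ratio was 2.02 on replicate 1 and 0.50 on replicate 2, a mean of 1.26 ± 1.08 (SD, n = 2, limma adjusted p = 0.0328). It passed in 6 of 13 alternatives, with limma adjusted p from 0.0028 to 0.595. Cox7a2 did not pass without background correction, with the background surface subtracted or with median centring. Nor did it pass with Feature Extraction's ratios or the deposited table, without the filter, or with separate channels. A second probe of the gene, which overlaps the first, gave 1.94 and 0.36. The Cox7a2 probe lies on chromosome 9, 79541092 to 79541151 (build NCBI36, mm8, as in all probe coordinates here), and no genome of that build was used, so exons were not assigned.

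The other subunits of complex IV with high ratios are nuclear subunits of the general form of the enzyme. Cox5b, which lies on the matrix side, had 1.53 and 0.38 (mean 0.96 ± 0.82, limma adjusted p = 0.138). Cox8a, a small subunit that crosses the membrane, stood at 1.07 and 0.60, and Cox6a1, the liver-type form of subunit VIa, at 1.31 and 0.29. Cox5a (1.01 and 0.34), Cox4i1 (0.82 and 0.20) and Cox7b (0.71 and 0.047) were positive on both arrays as well, and none of these 6 passed the test. Cox6c had smaller positive ratios, alike on both arrays (0.21 and 0.23). Cox6b1, the subunit that faces the space between the membranes, ran the other way with -1.65 and -0.25. In deficient RNA its probe stayed at background on both arrays, which leaves a bound: wild-type RNA had at least 1.39-fold more (measured means of 9.13 and 8.18 on the log2 scale, limma adjusted p = 0.141).

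Tissue isoforms of complex IV were mostly dim. Cox7a1 and Cox8b, of heart and muscle, Cox8c, of testis, and Cox4i2, which is best known from lung, did not pass the filter, and neither did Cox7c, a subunit of the general form. Cox6b2, described from testis, stood at 0.20 and -0.15, and Cox6a2, of heart and muscle, at 0.097 and 0.31; the genotypes did not differ beyond the standard error of 0.42 for either gene. Leaving these isoforms out raised the median of complex IV to 0.67 over 9 subunits (1.01 and 0.29). Ndufa4, named for complex I, was assigned to complex IV by later work. It had 0.47 and -0.15, and counting it there set the median of complex IV at 0.44, while complex I without it kept 0.22. Cox7a2l, which joins complexes III and IV into supercomplexes, gave -0.65 and 0.25, opposite signs on the arrays.

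In complex III, the cytochrome bc1 complex, ratios were highest among the small subunits. Uqcrb, which binds near the ubiquinone site, had a log2 intensity of 9.36 and 9.25 in wild-type RNA and 10.87 and 10.14 in deficient RNA. Its log2 ratio was 1.50 and 0.89, a mean of 1.20 ± 0.43 (SD, n = 2; limma adjusted p = 0.0458; chromosome 13, 67336479 to 67336538). Of the 73 subunits, Uqcrb had the highest ratio on replicate 2. It passed in 5 of 13 alternatives, with limma adjusted p from 0.0031 to 0.389, and stood between 0.80 and 1.38 in all 13. None of these 5 was a setting in which Cox7a2 failed.

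Uqcr (Uqcr11), the smallest subunit of the complex, had 12.16 and 12.20 in wild-type against 13.81 and 12.53 in deficient RNA, and a ratio of 1.65 and 0.33 that did not pass (mean 0.99 ± 0.93, limma adjusted p = 0.123). Uqcrh, the hinge protein that aids the docking of cytochrome c, stood at 1.20 and 0.33, and Uqcrq at 0.74 and -0.076. A second, dimmer probe of Uqcrh gave 0.51 and 0.11. The core proteins lay nearer to 0 in the mean, Uqcrc2 at 0.40 and 0.23 and Uqcrc1 at 0.036 and -0.028. The Rieske iron-sulfur protein Uqcrfs1 stood at 0.42 and 0.35. Its mean (0.39) was above that of Uqcrq (0.33), and on replicate 2 it also exceeded Uqcr and Uqcrh. The median of the 4 small subunits was 0.88 and that of the 2 core proteins 0.16, with the Rieske protein between them.

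In complex I, NADH dehydrogenase, limma called 0 of 36 subunits, beside 9.67% of all genes in either direction. An unadjusted p under 0.05 was found for 1 of them, beside 2181 of all 9946 genes. Subunits of the membrane arm led the higher side. Ndufa1, which is needed for assembly of the arm, had 1.07 and 0.29, Ndufa13, also known as the cell death gene Grim19, had 1.10 and 0.20, Ndufb7 had 1.08 and 0.15, and Ndufb8, often used as a protein marker of assembled complex I, had 0.97 and 0.22. Over the 19 subunits of this arm the median was 0.55 on replicate 1 and 0.15 on replicate 2. Ndufb6, of the same arm, was negative on both arrays (-0.13 and -0.68), and Ndufa10 stood at -0.69 and 0.034.

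The N module of complex I, where NADH is oxidized, had a median of 0.15 and 0.0048 over 7 subunits and held the lowest of all subunits. Ndufv2, an iron-sulfur subunit at the entry of electrons, had a log2 intensity of 10.01 and 9.63 in wild-type RNA and 8.06 and 9.23 in deficient RNA. Its ratio was -1.95 and -0.41, a mean of -1.18 ± 1.09 that stayed just outside the threshold (limma adjusted p = 0.0504), and its deficient channel was well above background on 1 of 2 arrays. Ndufs1, the largest subunit, carries further iron-sulfur clusters and was negative on both arrays too (-1.10 and -0.32). Its neighbours in the module were positive or near 0: Ndufa2 at 1.01 and 0.0048, Ndufv1, which binds NADH and flavin, at 0.49 and 0.11, Ndufa12 at 0.27 and 0.015, Ndufs4 at 0.15 and 0.0091, and Ndufs6 at 0.13 and -0.32. The 5 subunits of the Q module, which hands electrons to ubiquinone, had a median of 0.47 and 0.064, with Ndufa5 the highest by mean (0.35) although its arrays differed in sign (0.88 and -0.19). Ndufab1, the acyl carrier protein that also serves fatty acid synthesis in mitochondria, lay at 0.36 and 0.0070.

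Both assembly factors of complex I that the name rule holds were negative on both arrays. Ndufaf1 had -1.57 and -0.23 (mean -0.90 ± 0.95, limma adjusted p = 0.171) and Ndufa12l had -0.98 and -0.089 (mean -0.54 ± 0.63, limma adjusted p = 0.472). Their deficient channel was well above background on 1 of 2 arrays. Neither passed the test.

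Complex II, succinate dehydrogenase, was split. Sdha, the flavoprotein that oxidizes succinate, had a log2 intensity of 9.86 and 9.55 in wild-type RNA against 8.31 and 9.53 in deficient RNA, so that the genotypes differed on replicate 1 (-1.55) and hardly on replicate 2 (-0.019); its deficient channel was well above background on 1 of 2 arrays. Sdhb, the iron-sulfur subunit, stood near 0 (0.15 and 0.023). Of the membrane anchors, Sdhd was positive on both arrays (0.67 and 0.28) and Sdhc negative on both (-0.48 and -0.25). None of the 4 genes passed the test, which 9.67% of all genes did.

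Complex V, ATP synthase, had the narrowest spread of ratios between its subunits on replicate 1, with an SD across genes of 0.44 beside 0.65 in complex I and 0.97 in complex IV. Limma called 0 of 15, beside 9.67% of all genes in either direction (0 also at an unadjusted p under 0.05, beside 2181 of all 9946 genes). Subunits of the central stalk of the F1 part stood highest: Atp5e (1.29 and 0.20), Atp5d (1.00 and 0.46) and Atp5c1, the stalk's rotating shaft (0.62 and 0.49). In the head of F1, which carries the catalytic sites, the beta chain Atp5b had 0.44 and 0.16 on its brightest probe. Atp5j2, of the membrane part, had 0.93 and 0.15. At the low end were Atp5g1 (-0.083 and -0.25), Atp5l (-0.16 and 0.24), the coupling subunit Atp5j (0.19 and -0.038) and Atp5a1, the alpha chain of F1 (-0.12 and 0.28). The genes Atp5g1, Atp5g2 and Atp5g3 encode the same mature protein, subunit c of the rotating ring, and had mean ratios of -0.17, 0.13 and 0.50. Atp5s was not well above background in either genotype.

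The arrays ranked the subunits alike in part, and replicate 1 set most of the size of the ratios. Over the 73 subunits the log2 ratios of both arrays had Pearson r = 0.519 and Spearman rho = 0.456, beside 0.594 and 0.613 over all genes; the subunits share the arrays, the dye orientation and the labelling. The SD across subunits was 0.71 on replicate 1 and 0.26 on replicate 2, where all genes had 0.96 and 0.65. Of the 77 members, 53 had the same sign on both arrays and 24 had not. The largest gaps between the arrays were those of Ndufv2 (1.54), Sdha (1.53) and Cox7a2 (1.53).

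After loess, which is fitted along spot brightness, bright subunits had the higher ratios. The median brightness A of the measured subunits, the mean log2 intensity of both channels, was 11.85, beside 9.61 for all genes. The log2 ratio rose with A over the 73 subunits on replicate 1 (Pearson r = 0.574) more than on replicate 2 (r = 0.283), and less over all genes (0.181 and 0.102). At an A of 11.85 or more, 37 subunits had a median of 0.74 and 0.20, and the 999 genes as bright had 0.11 and 0.0036. Below the lower quartile of the subunits' brightness, 18 subunits had 0.038 and 0.015, and 7799 genes had -0.30 and -0.014. The complexes differed in brightness too, with median A of 11.57, 10.09, 12.48, 11.53 and 12.92 for complexes I to V. Complex V stood first in this order, but complex IV without its tissue isoforms had a median A of 13.80, above complex V. With median centring in place of loess, complex V had the lowest median ratio of the complexes (-0.66). The relation of ratio to brightness was not computed in that setting.

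**Figure D3:**
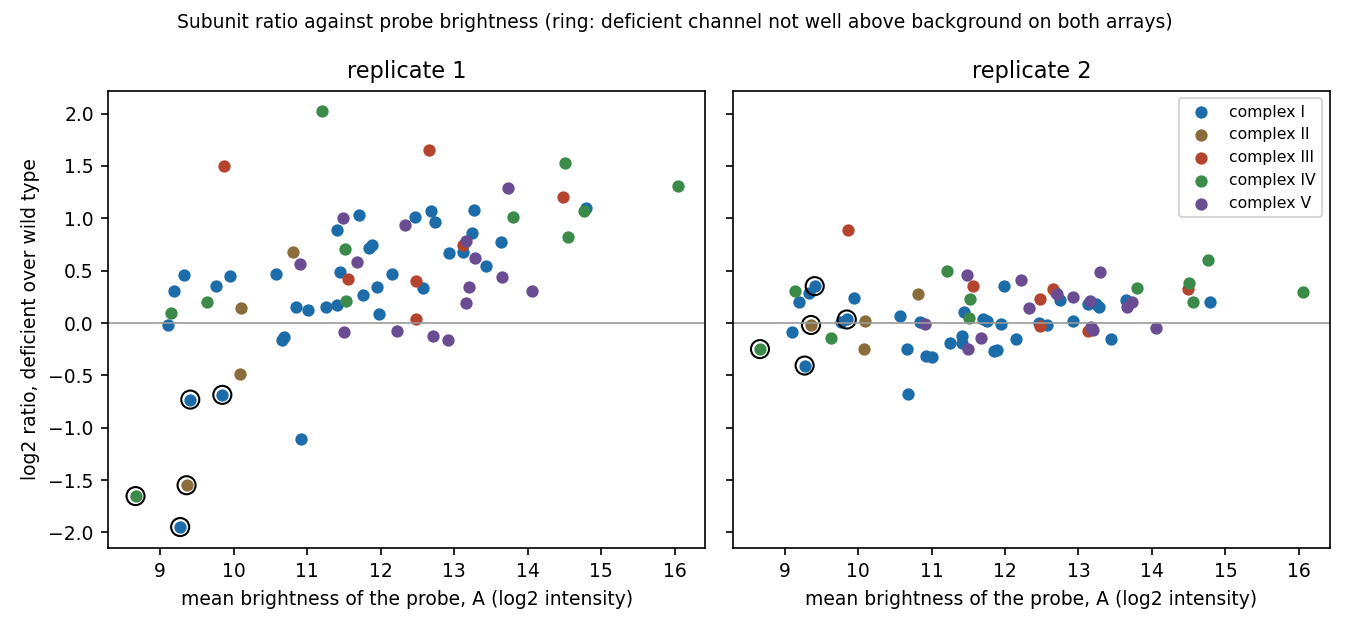
Log2 ratio after loess (vertical axis) against probe brightness A (horizontal axis, log2 intensity) for the 73 measured subunits on replicate 1 (left) and replicate 2 (right), coloured by complex. A ring marks the 5 subunits that missed the background limit in deficient RNA on 1 or both arrays. They passed through the wild-type channel, which by itself favours a low ratio. On replicate 1 the 37 subunits with an A of 11.85 or more have a median of 0.74.

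In deficient RNA 68 subunits stood well above background on both arrays, 4 on 1 array (Ndufa10, Ndufv2 and Sdha among them) and Cox6b1 on none. The last 5 passed the filter through the wild-type channel, which by itself favours a low ratio on an array where deficient RNA missed the limit. On replicate 2, Ndufa10 (0.034) and Sdha (-0.019) stood near 0, and Cox6b1 (-0.25) and Ndufv2 (-0.41) below it. The part of the filter in these values was not tested. Without these 5, the median of complex II was 0.085 and that of complex IV 0.59. Of 16 members with several measured probes, the probe nearest to the start of the gene had a lower ratio than that nearest to its end in 15 on replicate 1 and in 12 on replicate 2, with median differences of -0.42 and -0.11. Over the 2166 genes of that kind the share was 49.6% and 45.9%. The upstream probe was also the dimmer in 14 of the 16, and in 66.8% of all such genes. In 5 of the 16 members (Ndufa11, Cox7a2, Ndufa8, Ndufs6 and Atp5h) these probes start at most 40 bases apart, so they hardly differ in place.

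Atp5b, the catalytic beta chain of F1, had the widest such gap on replicate 1 (-2.73), whereas on replicate 2 its gap (-0.16) was smaller than that of Ndufs4 (-0.42). Its brightest probe, nearest to the end of the gene (chromosome 10, 127493148 to 127493207), had 0.44 and 0.16. The middle probe (127488462 to 127488521) gave -1.73 on replicate 1 and 0.30 on replicate 2, and the probe farthest upstream gave -2.29 and 0.00057. Both upstream probes were well above background in deficient RNA on 1 of 2 arrays, so the sizes of their ratios on replicate 1 are uncertain. On replicate 1 the probes of this gene thus lay on both sides of 0. In Ndufa12, Atp5g2 and Uqcrc1 the mean ratios of kept probes also differed in sign, by 0.55, 0.32 and 0.13. The part of probe place and RNA quality in the ratios was not tested.

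Promoters were searched for 3 motifs, which the rule did not use. NRF1 and the ETS factor GABP are activators known to bind promoters of respiratory chain genes. RefSeq promoter windows (GRCm38.p6, 250 bases before to 50 bases after the start) were on hand for 64 of the 78 subunits, in 69 windows. The NRF1 motif, GCGCA and GCGC with any base between them, was found on either strand in 26.1% of these windows, in 10.2% of the windows of tested genes and in 4.60% of all windows. The ETS motif CCGGAAG was found in 23.2% against 17.9% and 8.86%, and the YY1 motif AAGATGGC in 14.5% against 4.74% and 2.75%. Where 2 of these motifs overlapped, each was counted. At least 1 of the 3 motifs stood in 55.1% of the subunit windows and 29.0% of those of tested genes, but in 3 of 11 windows of complex IV; no test of these shares was made. Among the complexes, an NRF1 match stood in 8 of 34 windows of complex I, 2 of 3 of complex II, 1 of 4 of complex III, 1 of 11 of complex IV and 6 of 17 of complex V.

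Ratios were set beside the matches. The 17 measured subunits with an NRF1 match had a median log2 ratio of 0.22 and the 44 without one 0.28, and the order differed between the arrays (0.57 against 0.46 on replicate 1, -0.050 against 0.13 on replicate 2). For the ETS motif these medians were 0.27 over 16 genes and 0.22 over 45, and for YY1 0.16 over 10 and 0.28 over 51. To show both ends of the measured range, the 150 bases before the start are printed for the subunits with the highest and the lowest ratio (Cox7a2 and Ndufv2), for high subunits of complexes III and IV and for the highest and lowest subunit of complex II, all on the minus strand, with matches to any of the 3 motifs in capitals.
Cox7a2 (chr9:79759854-79760003): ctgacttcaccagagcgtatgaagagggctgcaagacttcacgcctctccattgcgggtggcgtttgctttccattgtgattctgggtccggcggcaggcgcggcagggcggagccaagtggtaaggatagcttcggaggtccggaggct
Cox6a1 (chr5:115348959-115349108): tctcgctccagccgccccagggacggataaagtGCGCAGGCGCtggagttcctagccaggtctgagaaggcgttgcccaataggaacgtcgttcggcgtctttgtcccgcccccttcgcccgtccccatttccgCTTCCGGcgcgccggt
Uqcr11 (chr10:80406822-80406971): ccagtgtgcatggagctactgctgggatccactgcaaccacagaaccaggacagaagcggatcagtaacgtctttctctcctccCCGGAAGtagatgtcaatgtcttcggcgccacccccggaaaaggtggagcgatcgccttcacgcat
Sdhd (chr9:50603850-50603999): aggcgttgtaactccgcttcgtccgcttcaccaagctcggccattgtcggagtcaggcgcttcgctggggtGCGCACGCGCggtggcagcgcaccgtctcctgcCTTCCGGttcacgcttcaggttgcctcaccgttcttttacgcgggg
Sdha (chr13:74350241-74350390): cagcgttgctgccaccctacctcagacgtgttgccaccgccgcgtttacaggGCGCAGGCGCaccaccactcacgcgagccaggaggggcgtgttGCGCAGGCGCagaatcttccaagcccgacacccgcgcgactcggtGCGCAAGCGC
Ndufv2 (chr17:66101560-66101709): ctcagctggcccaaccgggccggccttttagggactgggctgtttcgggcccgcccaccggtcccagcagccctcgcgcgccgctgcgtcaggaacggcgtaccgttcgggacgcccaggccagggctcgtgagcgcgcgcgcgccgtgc
Sdha, the lowest subunit of complex II, holds 3 NRF1 matches in this stretch, Sdhd and Cox6a1 hold 1 NRF1 and 1 ETS match each, Uqcr11 holds 1 ETS match, and neither Cox7a2 nor Ndufv2 holds any of the 3 motifs. The match in Cox6a1 is the only NRF1 match in the 11 windows of complex IV. Cox5b and Cox8a, not printed, had higher mean ratios (0.96 and 0.84 against 0.80) and hold no match in this stretch.

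Beyond the name rule, genes of the same pathway gave mixed values. Beside the counts in this and the next paragraph, limma called 3.67% of all genes higher and 6.00% lower. An unadjusted p under 0.05 was found for 2181 of all 9946 genes. Of 7 measured genes of the chain that the rule does not reach, 1 rose: Atpif1, the inhibitor of ATP synthase, with 2.00 and 1.94 (mean 1.97 ± 0.04 (SD, n = 2), limma adjusted p = 1.73e-04). Unlike the called subunits, Atpif1 was as high on replicate 2 as on replicate 1. Cytochrome c, Cycs, stood at 0.79 and 0.46 and Cyc1, the cytochrome c1 of complex III, at -0.23 and 0.089. Of 16 measured assembly factors limma called 0 (4 had an unadjusted p under 0.05), and their median was -0.54 and -0.23, below the -0.22 and -0.0080 of all genes. They ran from Cox15, which makes haem a, (-1.56 and -0.78; not well above background in deficient RNA, with wild-type RNA at least 1.35-fold higher) to Cox10, which acts just before it (1.06 and 0.94). In wild-type RNA Cox10 was well above background on 1 of 2 arrays. It passed the filter through the deficient channel, which by itself favours a high ratio. Acad9, needed for assembly of complex I, had -1.89 and -0.35, with deficient RNA well above background on 1 of 2 arrays.

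Of 17 measured citric acid cycle enzymes 1 fell, Idh3b, a subunit of isocitrate dehydrogenase (-2.58 and -0.0060, mean -1.29 ± 1.82, limma adjusted p = 0.0274), so that the call rests on replicate 1 and, since deficient RNA was well above background on 1 of 2 arrays, on a ratio of uncertain size; the highest was the malate dehydrogenase Mdh1 (1.88 and 0.48, limma adjusted p = 0.0501). The list's median was -0.19 and 0.12. Of 14 measured regulators of mitochondrial genes 3 fell: Ppargc1b (limma adjusted p = 1.72e-04), a coactivator of respiratory genes, Myc (-1.72 and -1.42, limma adjusted p = 0.0047) and Polg (limma adjusted p = 0.0220), the mitochondrial DNA polymerase. Myc was well above background in deficient RNA on 1 of 2 arrays. Ppargc1b and Polg were so on neither, and wild-type RNA had at least 2.25-fold and 1.79-fold more. Nrf1 (0.55 and 0.097) and Gabpa (0.27 and -0.36), whose products bind the motifs searched above, did not pass, and the highest regulator was Peo1, the mitochondrial DNA helicase (1.18 and 0.55). The 18 measured import and carrier genes, of which limma called 0 (1 at an unadjusted p under 0.05), had a median of -0.29 and -0.0096, from Tomm20 (-0.97 and -0.77), a receptor for imported proteins, to the channel Vdac1 (0.49 and 0.35).

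**Figure D4:**
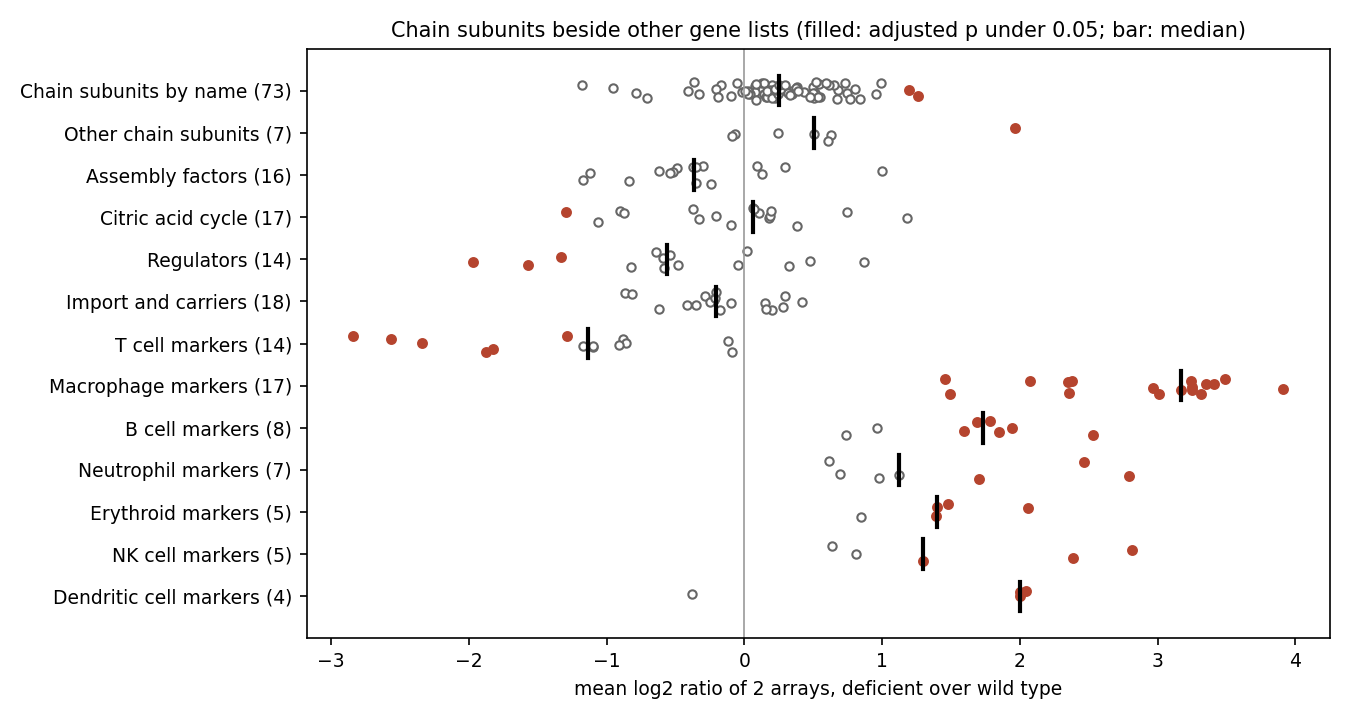
Mean log2 ratio of both arrays (horizontal axis) for each measured gene of the subunits and of 12 other lists, with the number of genes in parentheses, filled points for genes with a limma adjusted p under 0.05 and a bar at each median. The subunits centre on 0.25 after loess (-0.48 after median centring), between the T cell markers at -1.14 and the macrophage markers at 3.17.

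**Figure D5:**
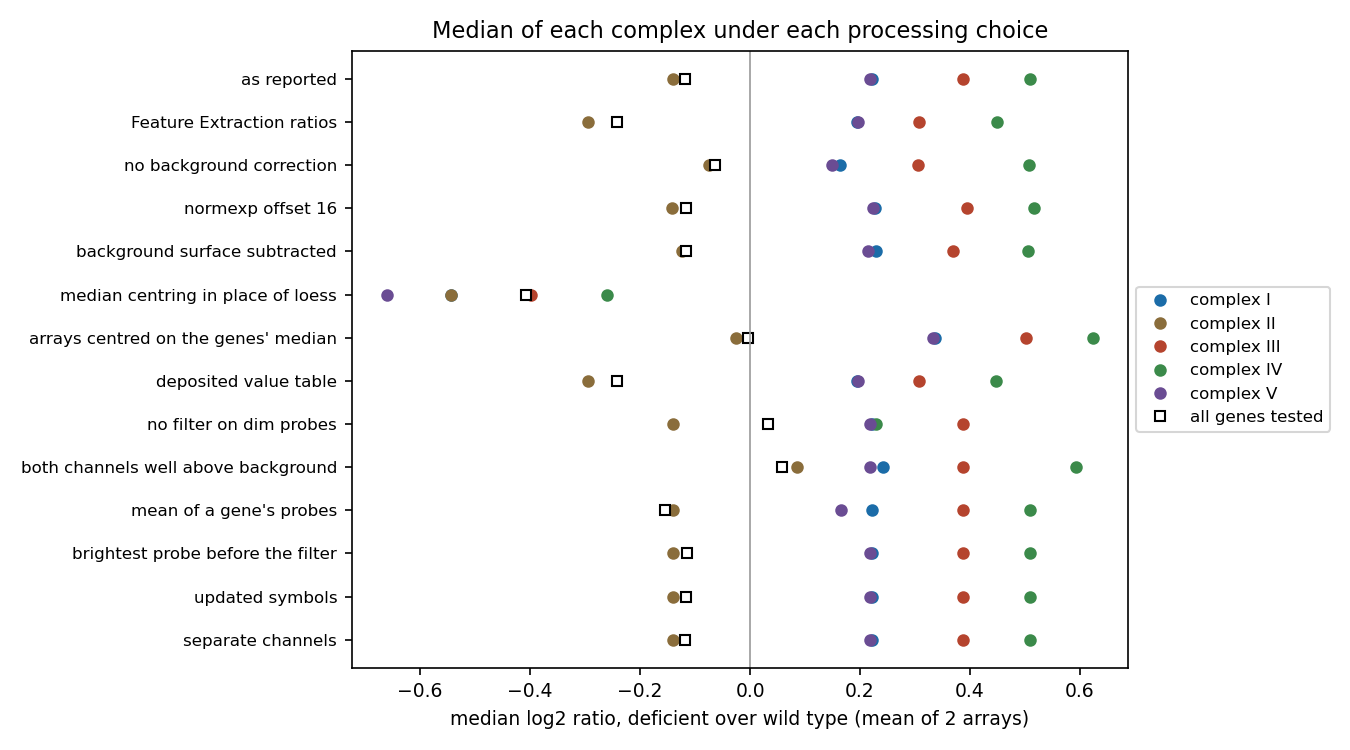
Median log2 ratio (horizontal axis) of the subunits of each complex and of all genes tested, under the reported processing and 13 alternatives (vertical axis). Complexes III and IV lie right of complexes I, II and V under each of them, and median centring moves every complex below 0. Several alternatives cannot change the order of the complexes or repeat the values of another setting.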

How the data were processed

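Per the file headers, the deposited scanner files, from Agilent Feature Extraction 9.5.3.1, give each spot's mean intensity, local background and log10 ratio, red to green. In the deposited value table that log10 ratio recurs within 0.0050, with a median of 0 in each column. Per the labels, RNA was amplified linearly and dyes were attached chemically. Both arrays have 43379 gene spots, of which 26.0% to 32.4% were well above background in a channel, and the number of arrays limits the precision.

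Intensities were corrected by normexp (offset 50), normalized by loess within arrays with control spots at weight 0, and outlier spots (255 and 195) were removed. The brightest of the kept probes (12622) stood for a gene, named as in the files. Limma 3.58.1 (R 4.3.3) tested whether log2 ratios differed from 0 (two-sided, Benjamini-Hochberg over 9946 genes, threshold 0.05). Channel levels and bounds used Aquantile; a bound sets the brighter group's mean against a floor, averaged over arrays: the dimmest signal counted as well above background, or the dim probe's own where larger. Bounds are open to dye bias. Tested on simulated data for this comparison (9946 genes, 200 changed), the fit recovered 15.8% of changes of 1 on the log2 scale and 91.3% of changes of 2. The simulated noise was independent, with the same variance for every gene and array, as the fit assumes. The ratios of the real arrays had SDs of 0.96 and 0.65, so these shares hold for the simulated setting only.

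Named in the text are called members, the 4 highest and 4 lowest subunits of each complex (all where under 9), the 3 members with the widest gap between arrays, members with kept probes of opposite sign, and for the pathway lists the called genes or else the highest and the lowest; others that illustrate a role were chosen with their values known. Counts and medians cover all members, of which 1 is not reported here by itself. The members, lists and roles were chosen with earlier results of these data known. For strand, the order of the array's coordinates was used, which equalled RefSeq's strand for 98.9% of 26168 probes.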

Additional observations from a re-analysis of the deposited data

How the results depend on the processing

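Median centring in place of loess turned the direction: the median was -0.41 for all genes, -0.48 for all subunits and -0.54, -0.54, -0.40, -0.26 and -0.66 for complexes I to V, with 69 genes higher and 352 lower. Beside 365 genes higher and 597 lower as reported, the counts were 50 and 66 both with Feature Extraction's own ratios and with the deposited table (median of all genes -0.24), 233 and 179 with the background surface subtracted, and 0 and 0 without a filter on dim probes (5153 genes at an unadjusted p under 0.05) or with separate channels in limma (1992). Higher and lower genes were 293 and 190 without background correction and 547 and 212 with both channels well above background. Members higher, 2 as reported, were 0 in each of these settings except the last (4), with 3 to 15 members at an unadjusted p under 0.05, and 1 with a normexp offset of 16; 1 member was lower with the mean of a gene's probes. The median of complex II was -0.29 from those ratios and that table, 0.085 with both channels well above background, and 0.085 without the subunits not well above background in deficient RNA, an alternative chosen after seeing the data. All genes had a median of 0.033 without the filter and 0.058 with both channels required. The cause of these changes was not tested. Single arrays, which allow no test, gave -0.17 to 0.0021 for complex II, 0.33 to 0.74 for complex III and 0.16 to 0.44 for complex V. The other settings kept every median within 1 SD between arrays. Both genotypes share each array, so the ratio is already a paired value, and the test of it against 0 uses that pairing.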
